A study of Mus musculus with 24 samples.

Results

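Livers of mice that lack Egfr in hepatocytes were compared with livers of wild-type mice 3 h after an acetaminophen overdose, and the genes that set every KO mouse apart from every WT mouse were described. The comparison rests on 6 of the 24 libraries of the series, 3 labelled KO 3hr and 3 labelled WT 3hr, each from the liver of 1 mouse. KO mice carry a hepatocyte-specific deletion of Egfr and WT mice do not; both received 500 mg/kg acetaminophen, so no untreated mouse of the same hour enters the comparison. The labels give no Cre driver, strain, sex or age, and do not say what the 0 h mice received. The other 18 libraries, KO and WT at 0, 1 and 12 h with 3 mice each, served to estimate the spread and to look at the same genes at other times. Of 13204 genes with enough counts to be tested, 129 differed between KO and WT at 3 h at an adjusted p under 0.05. In 56 of them all 3 KO mice lay apart from all 3 WT mice, with WT replicate 1 at least 0.5 as far from the KO mean as WT replicates 2 and 3. Most of these 56 calls were still lost when WT replicate 2 or 3 was left out. These 56 genes, 40 higher and 16 lower in KO, are the subject below.

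EGFR is a receptor tyrosine kinase at the cell surface. Ligands such as EGF, TGF-alpha and amphiregulin make it dimerise and signal through the RAS-ERK, PI3K-AKT and STAT3 pathways, and in the liver it is known for its part in hepatocyte proliferation and survival after injury. Acetaminophen is turned by hepatocyte cytochromes, mainly Cyp2e1, into a reactive metabolite that uses up glutathione and binds to proteins. Heat shock, antioxidant, acute phase and drug metabolism genes of the hepatocyte are well known to respond during such injury.

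Levels are given in CPM, counts scaled to one common library total after TMM scaling, one value per mouse in the order of the replicate numbers. The 6 libraries held 4.43 to 7.25 M counts on genes, of which 39.6% to 42.0% lay on ribosomal RNA loci. The 8 hepatocyte markers summed to 49870.0 to 50506 CPM in the KO mice, against 56818, 59738 and 63012 CPM in the WT mice, and none was called. Alb weighed heavily in these sums, with 23722, 22809 and 24326 CPM in the KO mice, against 28570, 34084 and 37492 CPM in the WT mice. The mean log2 CPM of the 8 markers overlapped, at 11.51 to 11.60 in the KO mice, against 11.70, 11.57 and 11.60 in the WT mice. WT replicates 2 and 3 stood apart from the rest: the mean log2 CPM of 23 acute phase genes was 8.42 and 8.41 in them, against 5.73 to 6.40 in the KO mice, 6.01 in WT replicate 1 and 5.59 to 6.74 in the 18 libraries of other times. The replicates are separate mice. In whole liver, fewer cells of a type and less RNA per cell cannot be told apart.

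Egfr itself had 82.3, 184 and 271 CPM in the KO livers, against 303, 633 and 455 CPM in the WT livers. All KO values lay below all WT values, yet the KO mice differed widely among themselves and the test over all genes did not pass (log2 fold change -1.37 ± 0.44 SE, adjusted p = 0.216). KO replicate 3, at 271 CPM, lay above the WT mice of 12 h, at 263, 205 and 203 CPM. The KO mice of 12 h had 65.9, 117 and 43.0 CPM. An exact two-sided permutation test over the 6 mice gave p = 0.1, the smallest value that 3 against 3 allows, for a difference of -1.46 on the log2(CPM + 1) scale. Without WT replicates 2 and 3, whose 633 and 455 CPM were the highest, the log2 fold change was -0.76. The remaining Egfr counts were not assigned to cell types.

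No other gene of the receptor's family, its ligands or its regulators was called among the 13 tested. Erbb3, a partner receptor of EGFR whose own kinase is weak, was closest, with 43.9, 39.2 and 42.6 CPM in the KO livers, against 49.7, 57.9 and 48.1 CPM in the WT livers. These levels did not overlap, but the gene missed the threshold (log2 fold change -0.30 ± 0.12 SE, adjusted p = 0.331). The ligand gene Tgfa was at log2 fold change 0.22 (adjusted p = 0.828), and Errfi1, which encodes the feedback inhibitor MIG6 of EGFR, was at 0.06 (adjusted p = 0.912). The family had a median log2 fold change of -0.04, beside -0.01 over all genes tested, and 4 of its 13 genes did not overlap between the genotypes, where 15.5% of all genes tested did not. None of 12 tested feedback inhibitors and targets of ERK signalling was called either, with a median of 0.25.

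Of the 13204 genes tested, 129 were called (0.977%), 43 higher (0.326%) and 86 lower (0.651%) in KO, and 1377 had an unadjusted p under 0.05. In 114 of the 129 the KO and WT mice did not overlap; over all genes tested that was so for 2049, or 15.5%. The called genes were then sorted by the position of WT replicate 1, the WT mouse without the high acute phase genes. A gene counted as separated by all 3 WT mice when the genotypes did not overlap and WT replicate 1 lay at least 0.5 as far from the KO mean as replicates 2 and 3 did, on the same side, in log2 CPM. This held for 56 genes (0.424% of those tested), and the other 73 were carried by WT replicates 2 and 3. The absence of overlap in each of the 56 follows from this rule and is no support for any of them. The 2 sets leaned in opposite directions: 40 of the 56 were higher in KO, with a median log2 fold change of 0.86 and 16 of them over 1, whereas 70 of the 73 were lower. The 16 lower genes of the first set had a median of -1.30.

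**Figure D1:**
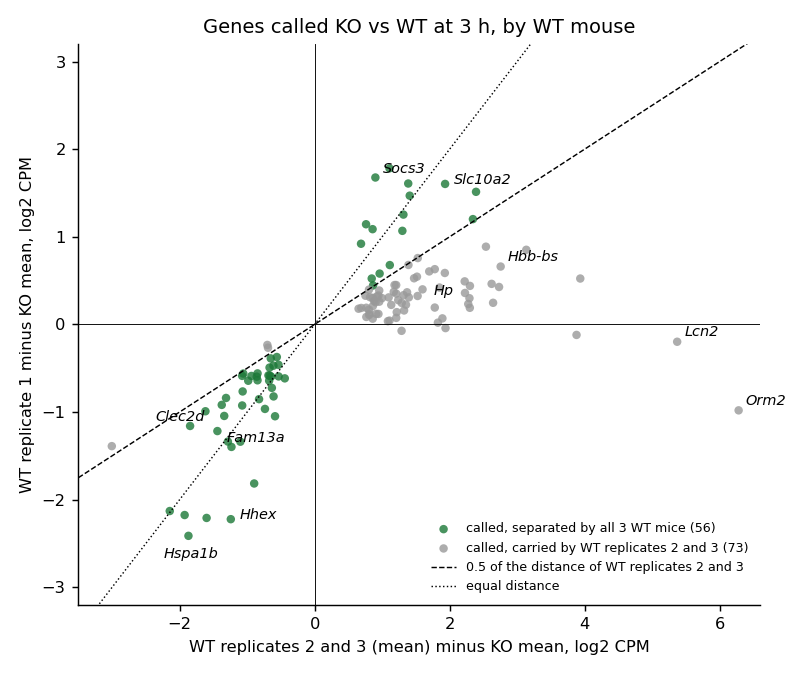
Each point is 1 of the 129 genes called between KO and WT at 3 h. The horizontal axis gives the mean of WT replicates 2 and 3 minus the KO mean and the vertical axis WT replicate 1 minus the KO mean, both in log2 CPM, so genes lower in KO lie to the right. The 56 genes separated by all 3 WT mice lie beyond the dashed line at 0.5 of the distance, and acute phase genes such as Lcn2 and Orm2 lie far right with WT replicate 1 near or below 0.

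The genes nearest the dividing line were, outside it, Tmem176a at 0.496 of the distance and Serpinf2 at 0.493, and inside it Chrm3 at 0.512 and Apon at 0.513. With a demand of 0.75 in place of 0.5, 36 of the 56 genes remained. The calls depended on single libraries: of the 56, 26 were still called without KO replicate 1, 13 without KO replicate 2, 11 without KO replicate 3, 44 without WT replicate 1, 16 without WT replicate 2 and 8 without WT replicate 3. Of the 47 with a gene name, 4 were called in each of these 6 fits, namely Hhex, Fam13a, Clec2d and Hmcn2, while 33 were called in 2 or fewer, among them Slc38a2, Ppfia2, Setd7, Hycc2 and Zbtb40, which were called in 0 of the 6. With both WT replicates 2 and 3 left out, 1 WT mouse remained, which had to be assumed to vary like the mice of other groups; 6 of the 56 were then called (Hhex, Fam13a, Hmcn2, Rnf125, Plcxd2 and the predicted gene Gm57533). Because the position of WT replicate 1 sorted the 56 from the 73, neither their signs nor the absence of calls among the 73 in that fit is a separate check.

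Among the lower genes, cytokine signalling was represented by Socs3 and Il17ra. Socs3, the feedback inhibitor of JAK-STAT signalling downstream of IL-6 type cytokines, had 2.5, 2.4 and 2.02 CPM in the KO livers, against 7.71, 6.5 and 6.63 CPM in the WT livers. WT replicate 1 was the highest of the 6 mice (log2 fold change -1.59 ± 0.33 SE, adjusted p = 0.0145). Il17ra, a receptor chain for interleukin 17, had 6.33, 5.45 and 5.45 CPM in the KO livers, against 9.36, 12.8 and 12.8 CPM in the WT livers (log2 fold change -1.0 ± 0.22 SE, adjusted p = 0.017). Of 15 tested genes of IL-6 and STAT3 signalling, 2 were called lower and none higher, where 0.651% and 0.326% of all genes tested were. The median log2 fold change of the 15 was -0.24, or -0.15 without WT replicates 2 and 3. Beside Socs3 the called gene was Stat3, the transcription factor of this pathway. It had 42.4, 47.7 and 39.99 CPM in the KO livers, against 50.5, 96.7 and 94 CPM in the WT livers. There WT replicate 1 was close to the KO mice, so Stat3 belongs to the genes carried by the other 2 WT mice (log2 fold change -0.89 ± 0.19 SE, adjusted p = 0.0236). The call of Socs3 held in 1 of the 6 fits that left out a library, with adjusted p up to 0.11, and that of Il17ra in 2, with up to 0.13. Stat3 reached 0.187.

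The 250 bases before the start of Socs3 are printed because their letters match the consensus that STAT factors, whose output Socs3 limits, are known to bind. They come from RefSeq on GRCm38.p6, chr11:117969367-117969616, minus strand, and capitals mark the match to TTCNNNGAA, a motif that reads the same on both strands, 154 bases before the start.
Socs3: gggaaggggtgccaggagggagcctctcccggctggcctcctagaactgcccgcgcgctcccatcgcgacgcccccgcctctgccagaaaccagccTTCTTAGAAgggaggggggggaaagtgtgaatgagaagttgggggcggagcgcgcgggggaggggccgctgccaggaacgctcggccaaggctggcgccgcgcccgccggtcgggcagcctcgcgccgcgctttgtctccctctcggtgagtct
The same motif was found in 1940 of 27025 promoters (7.18%) and in 3 of the 36 of the 56 genes that have a promoter in the table, Socs3, Polr1b and Setd7. Only Socs3 of these was lower in KO, and the match says nothing of binding in these livers.

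A pair of transporters was lower in KO. Slc10a2, the sodium-dependent bile acid transporter known from ileum and bile ducts, had 26.9, 28.5 and 31.3 CPM in the KO livers, against 88.4, 85.7 and 144 CPM in the WT livers. The KO mice lay close together, and every WT mouse lay far above them (log2 fold change -1.88 ± 0.39 SE, adjusted p = 0.0273). Slc38a2, which carries small neutral amino acids into the cell, had 201, 177 and 201 CPM in the KO livers, against 425, 332 and 321 CPM in the WT livers, with WT replicate 1 the highest (log2 fold change -0.90 ± 0.19 SE, adjusted p = 0.0175). It was the only called gene among 18 tested transporters of amino acids and other substrates, whose median was -0.15. Over all genes tested, 0.651% were called lower and the median was -0.01. Cholangiocyte markers, with 4 of 8 tested, summed to 37.0 to 48.7 CPM in the KO mice, against 40.1, 67.9 and 59.2 CPM in the WT mice, and none was called; their part in the Slc10a2 difference was not tested. Without WT replicates 2 and 3 the values were -1.61 for Slc10a2 and -1.14 for Slc38a2, and with single libraries left out the adjusted p reached 0.187 and 0.111. The call of Slc10a2 held in 1 of those 6 fits and that of Slc38a2 in 0 of 6.

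Rnf125 had the highest level among the lower genes. It encodes an E3 ubiquitin ligase known to act on the RNA sensor RIG-I, and had 204, 257 and 257 CPM in the KO livers, against 451, 370.0 and 398 CPM in the WT livers. WT replicate 1 was the highest (log2 fold change -0.76 ± 0.14 SE, adjusted p = 0.0072). The call was lost only without KO replicate 1, at adjusted p = 0.0523. Mavs, the adaptor through which RIG-I signals, was higher in KO, at 0.61 (adjusted p = 0.0236); it was picked out after the values were seen, and its adjusted p reached 0.141 without 1 library.

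Adamts9, Arpc1b and Specc1 were lower in KO and belong to none of the gene lists. Adamts9, a secreted protease that cuts proteoglycans, averaged 3.35 ± 1.56 CPM in the KO livers and 8.7 ± 3.62 CPM in the WT livers (SD, n = 3 each), a log2 fold change of -1.35 (adjusted p = 0.0368). Arpc1b, a subunit of the actin-nucleating Arp2/3 complex, averaged 6.71 ± 1.4 CPM in the KO livers and 12.2 ± 1.83 CPM in the WT livers (SD, n = 3 each), at -0.85 (adjusted p = 0.0263). Specc1, a cytoskeletal coiled-coil protein, was at -1.30 (adjusted p = 0.0114). Without single libraries the adjusted p of Adamts9, Arpc1b and Specc1 reached 0.402, 0.249 and 0.108. These genes separated the genotypes at low levels, with no mouse above 13.4 CPM. In the list of YAP targets, wound and cytoskeleton genes, 12 of 19 tested members had a positive log2 fold change, as did 48.6% of all genes tested. The median of the 19 was 0.20, or 0.27 without WT replicates 2 and 3.

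Other lower genes were Apon, an apolipoprotein, at -0.73 (adjusted p = 0.0145) and Chic1 at -0.81 (adjusted p = 0.0469). Chic1 also lost its call with library size alone, with a filter of at least 1 CPM, in DESeq2, with the replicate block and without the ribosomal RNA loci; without 1 library the adjusted p of Apon and Chic1 reached 0.127 and 0.525. Hmcn2 had 5.15, 4.14 and 3.89 CPM in the KO livers, against 15.8, 10.2 and 9.47 CPM in the WT livers (log2 fold change -1.43 ± 0.24 SE, adjusted p = 0.00335), but only 5.2% of its strand-assigned reads lay on its own strand, so these counts cannot be given to Hmcn2 rather than to a transcript on the other strand. The muscarinic receptor gene Chrm3 had 0, 0 and 1 counts in the KO mice, against 4, 5 and 16 in the WT mice, and Cfap69, a gene of cilia and flagella, had 0, 1 and 1 counts, against 7, 11 and 12. At such counts the fitted fold depends on the prior, and DESeq2 called neither. The lower genes also included the predicted genes Gm38679 and Gm57533.

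**Figure D2:**
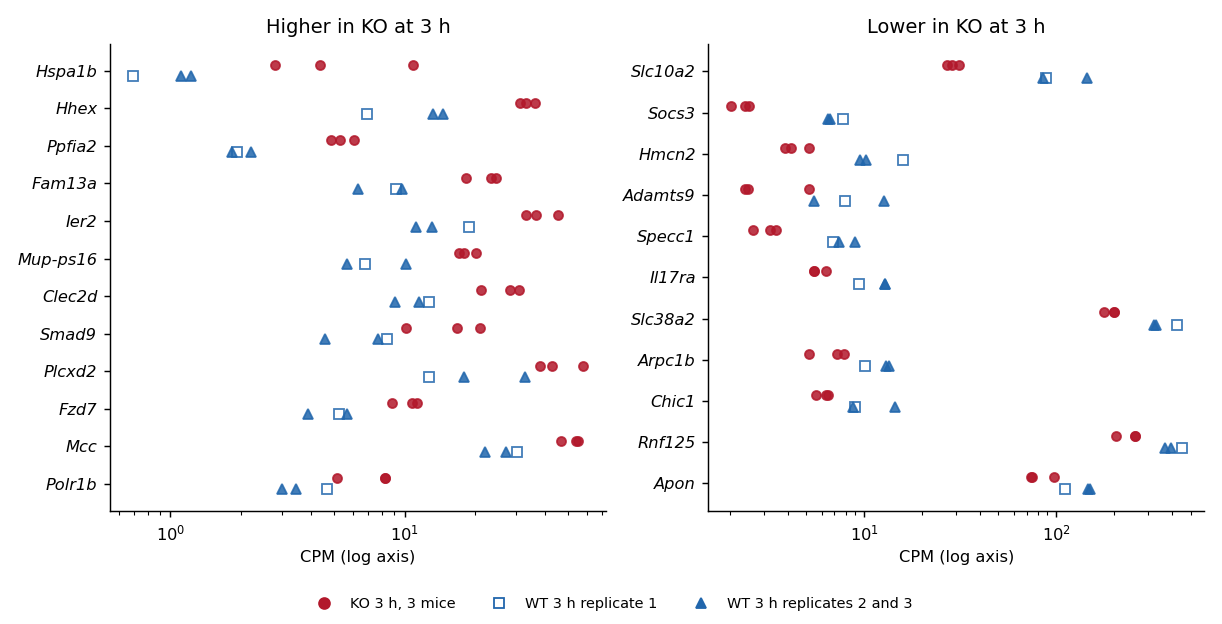
CPM in every mouse, on a log axis, for 12 higher and 11 lower genes among those with the largest fold, from the genes separated by all 3 WT mice with at least 5 CPM in the higher group. KO mice are red circles, drawn above the WT mice in blue, with WT replicate 1 as an open square. The genes were chosen for genotypes that do not overlap, and the open squares lie among or beyond the triangles for most lower genes.

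Among the higher genes were chaperones of the heat shock response. Hspa1b, the stress-inducible HSP70, had 2.8, 10.9 and 4.36 CPM in the KO livers, against 0.688, 1.22 and 1.1 CPM in the WT livers. These were 19, 50 and 28 counts in KO and 5, 6 and 7 in WT, with KO replicate 2 the highest (log2 fold change 2.51 ± 0.53 SE, adjusted p = 0.0201). Its near-identical neighbour Hspa1a held 39 counts over all 24 libraries together, and reads that match both genes cannot be assigned. Hspa8, the constitutive HSC70, had 586, 789 and 702 CPM in the KO livers, against 448, 535 and 478 CPM in the WT livers (log2 fold change 0.51 ± 0.13 SE, adjusted p = 0.045). Dnaja1, a J-domain partner of HSP70, had 72.6, 77.6 and 67.1 CPM in the KO livers, against 60.02, 47.1 and 42.3 CPM in the WT livers; WT replicate 1 lay between the other WT mice and the KO mice, so Dnaja1 counts among the genes carried by WT replicates 2 and 3 (log2 fold change 0.53 ± 0.13 SE, adjusted p = 0.0337).

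All 15 tested chaperones of the list had a positive log2 fold change, and 3 of them were called. Over all genes tested, 48.6% were positive and 0.326% were called higher. The median of the 15 was 0.48, and 0.30 without WT replicates 2 and 3, beside -0.01 and 0.00 over all genes. In 8 of the 15 the genotypes did not overlap, again beside 15.5% of all genes. Hsph1, a nucleotide exchange factor of HSP70, was at 1.16 (adjusted p = 0.0844), and Dnajb1, the main inducible J-domain partner, at 1.2 (adjusted p = 0.191). The calls of Hspa1b and Hspa8 did not hold without KO replicates 2 or 3 or any 1 of the WT mice, with adjusted p up to 0.127 and 0.352; that of Dnaja1 reached 0.36. None of 18 tested ER chaperones was called, with a median of 0.23.

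The promoter of Hspa1b is shown because it holds a match to the core that heat shock factor is known to bind at chaperone genes. It is again RefSeq sequence on GRCm38.p6, chr17:34959239-34959488, minus strand, with the match to GAANNTTC in capitals, 104 bases before the start; this motif too reads the same on both strands.
Hspa1b: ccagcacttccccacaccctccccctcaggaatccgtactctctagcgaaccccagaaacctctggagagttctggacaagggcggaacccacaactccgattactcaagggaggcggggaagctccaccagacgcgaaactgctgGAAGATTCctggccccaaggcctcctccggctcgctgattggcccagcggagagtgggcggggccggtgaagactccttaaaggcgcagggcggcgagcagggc
The core was found in 1833 of 27025 promoters (6.78%) and in 2 of the 36 genes matched, Hspa1b and Adh7. Hspa8 has no entry.

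**Figure D3:**
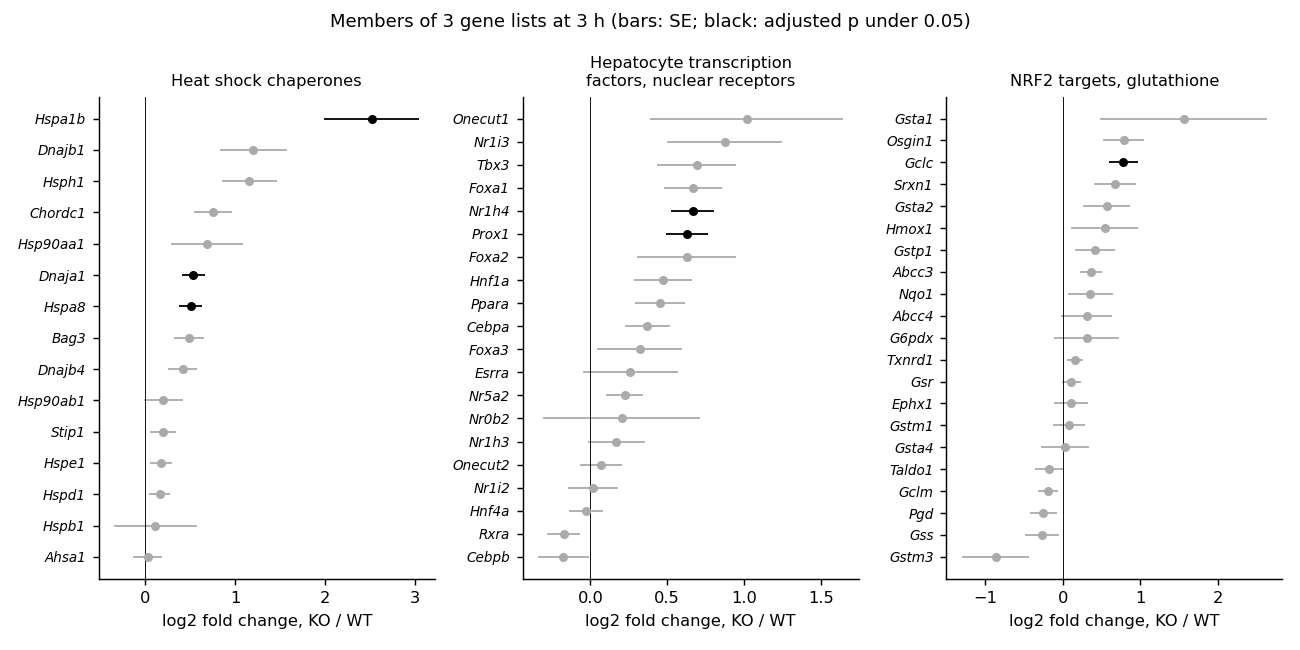
Log2 fold change of KO over WT at 3 h, with bars of 1 SE, for every tested member of 3 gene lists; black marks an adjusted p under 0.05 and grey the rest. All 15 chaperones lie right of 0, as do 17 of 20 hepatocyte transcription factors and 16 of 21 NRF2 targets, and 6 genes in all are black.

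Transcription factors of the hepatocyte formed the second group. Hhex, a homeobox factor needed for liver formation, had 31.2, 36.2 and 33 CPM in the KO livers, against 6.88, 13.2 and 14.7 CPM in the WT livers. The lowest KO mouse, at 31.2 CPM, lay far above the highest WT mouse, at 14.7 CPM (log2 fold change 1.54 ± 0.25 SE, adjusted p = 0.00494), and the call held in all 6 fits without a library and without WT replicates 2 and 3 together. Prox1, a homeobox factor of the hepatocyte, had 146, 152 and 139 CPM in the KO livers, against 96.2, 97.9 and 88.3 CPM in the WT livers (log2 fold change 0.63 ± 0.14 SE, adjusted p = 0.0165). Nr1h4, the bile acid receptor FXR, had 81.8, 97.2 and 92.6 CPM in the KO livers, against 54.5, 64 and 52.7 CPM in the WT livers (log2 fold change 0.67 ± 0.14 SE, adjusted p = 0.0145). In both genes the 3 WT mice lay close together.

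Of the 20 hepatocyte transcription factors and nuclear receptors listed, all tested, 2 were called, both higher, and 17 had a positive log2 fold change. Over all genes tested, 0.326% were called higher and 48.6% were positive. In 8 of the 20 the genotypes did not overlap, beside 15.5% of all genes tested. Hhex is not in the list. The median was 0.34, and 0.40 without WT replicates 2 and 3. Foxa1, a pioneer factor of the liver, was at 0.67 (adjusted p = 0.0965). Nr1h4 was also the only called gene among 17 of bile acid synthesis and transport, a list without Slc10a2. Of these, 15 were positive, with a median of 0.20, or 0.11 without WT replicates 2 and 3. The adjusted p of Prox1 reached 0.127 and that of Nr1h4 0.127 when single libraries were left out.

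Ier2, Smad9, Fzd7, Mcc and Fam13a were higher in KO, and of these Ier2 alone belongs to a gene list. Ier2, an immediate early gene that growth factors and stress switch on, had 33, 45.1 and 36.4 CPM in the KO livers, against 18.9, 11.2 and 13.1 CPM in the WT livers (log2 fold change 1.38 ± 0.25 SE, adjusted p = 0.0112). Of 18 immediate early genes tested Ier2 alone was called, where 0.326% of all genes tested were called higher. The median of the 18 was 0.11, or -0.13 without WT replicates 2 and 3. Fos, the partner of JUN in AP-1, had 10.3, 17.6 and 7.16 CPM in the KO livers, against 6.88, 2.64 and 4.58 CPM in the WT livers, without overlap but not past the threshold (log2 fold change 1.21 ± 0.38 SE, adjusted p = 0.185). Smad9, a transcription factor of BMP signalling, averaged 16 ± 5.43 CPM in the KO livers and 6.9 ± 2.04 CPM in the WT livers (SD, n = 3 each), a log2 fold change of 1.18 (adjusted p = 0.0273). Fzd7, a Wnt receptor, averaged 10.3 ± 1.3 CPM in the KO livers and 4.92 ± 0.948 CPM in the WT livers (SD, n = 3 each), at 1.03 (adjusted p = 0.0343). Mcc, which restrains Wnt signalling, had 46.7, 53.8 and 55.1 CPM in the KO livers, against 30.3, 22.1 and 27.1 CPM in the WT livers (log2 fold change 0.96 ± 0.18 SE, adjusted p = 0.00815). Fam13a had 24.6, 18.3 and 23.3 CPM in the KO livers, against 9.22, 9.75 and 6.31 CPM in the WT livers. The lowest KO mouse lay far above the highest WT mouse, and Fam13a kept its call in every fit that left out libraries (log2 fold change 1.40 ± 0.20 SE, adjusted p = 0.000668). For Ier2, Smad9, Fzd7 and Mcc the adjusted p reached 0.103, 0.213, 0.162 and 0.071 when 1 library was left out.

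Metabolic genes gave 1 member from each of 2 lists. Gclc, the catalytic subunit of the rate-limiting enzyme of glutathione synthesis, had 151, 95.2 and 96.2 CPM in the KO livers, against 75.6, 57.3 and 66.9 CPM in the WT livers. KO replicate 1 was the highest (log2 fold change 0.78 ± 0.19 SE, adjusted p = 0.0368). Gclc was the only called gene among 21 NRF2 targets and glutathione genes, where 0.326% of all genes tested were called higher. Of the 21, 16 were positive, beside 48.6% of all genes tested, with a median of 0.31, or 0.11 without WT replicates 2 and 3. Gclm, the regulatory partner of Gclc, is among the 5 negative ones in the plot of list members. Gpam, the mitochondrial acyltransferase that starts triglyceride synthesis, had 143, 146 and 134 CPM in the KO livers, against 102, 97.3 and 87.4 CPM in the WT livers (log2 fold change 0.56 ± 0.13 SE, adjusted p = 0.0233). Of the other 15 lipogenesis genes none passed, and Scd1, a fatty acid desaturase, followed the 2 WT mice with 882, 431 and 602 CPM in the KO livers, against 534, 2514 and 2809 CPM in the WT livers. Leaving out single libraries took the adjusted p up to 0.242 for Gclc and 0.187 for Gpam.

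Enzymes that handle acetaminophen and other drugs were mostly not called, and of all genes tested 0.326% were called higher in KO. Of 19 tested phase I enzymes Fmo1, a flavin-containing monooxygenase, alone was higher, with 92, 119 and 109.8 CPM in the KO livers, against 90.4, 70.9 and 60.3 CPM in the WT livers; WT replicate 1 was just below the lowest KO mouse, and the gene was carried by WT replicates 2 and 3 (log2 fold change 0.53 ± 0.13 SE, adjusted p = 0.0293). Cyp2c37 was at 0.67 (adjusted p = 0.21) and Cyp3a13 at -0.78 (adjusted p = 0.0663). No gene passed among 18 enzymes of glucuronidation and sulfation or among 25 PPARA targets and genes of fatty acid oxidation. Of these, 15 and 22 were positive, beside 48.6% of all genes tested. The PPARA list had a median of 0.27, and 0.10 without WT replicates 2 and 3. The median of the glucuronidation and sulfation enzymes was 0.27, and -0.02 without these 2 mice. That of the phase I enzymes was 0.17, and -0.002 without them. Ugt1a7c, a glucuronosyltransferase outside the list that shares exons with its Ugt1a neighbours, was called from 15, 9 and 9 counts in the KO mice, against 1, 3 and 0 in the WT mice, and DESeq2 did not call it. Adh7, an alcohol dehydrogenase, was at 0.83 (adjusted p = 0.0239); 32.3% of its reads lay on its own strand, and the call was lost in the gene-strand counts. The adjusted p of Fmo1 and Adh7 reached 0.354 and 0.243 without 1 library.

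The rest of the higher genes belong to no list. Clec2d, a C-type lectin bound by receptors of natural killer cells, had 21.2, 28.3 and 31 CPM in the KO livers, against 12.7, 9.14 and 11.5 CPM in the WT livers (log2 fold change 1.25 ± 0.21 SE, adjusted p = 0.00494). Plcxd2, a protein with a phospholipase C domain, had 38, 58.2 and 42.5 CPM in the KO livers, against 12.7, 32.7 and 18 CPM in the WT livers, with WT replicate 1 the lowest (log2 fold change 1.15 ± 0.26 SE, adjusted p = 0.0315). Polr1b, a core subunit of RNA polymerase I, was at 0.92 (adjusted p = 0.0424), and Ppfia2, a liprin, at 1.42 (adjusted p = 0.0302), with 51.1% of its reads on its own strand and no call in the gene-strand counts. Mup-ps16 was at 1.32 (adjusted p = 0.0228), and its reads may be shared with other major urinary protein genes. For Plcxd2, Polr1b, Ppfia2 and Mup-ps16 the adjusted p reached 0.212, 0.342, 0.134 and 0.186 without 1 library.

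Further members, outside the rule for named genes and named after their values were seen, are given by their log2 fold changes. Rreb1, a RAS-responsive zinc finger factor, was at 0.64, the RNA-binding protein gene Rbm47 at 0.51, the phosphatase gene Mtmr4 at 0.49 and the methyltransferase gene Setd7 at 0.77. Shld2, of the shieldin complex in DNA repair, was at 0.83, and Tsku, a secreted protein of the liver, at 0.86. Nav2 was at 0.67, Gucd1 at 0.56, Hycc2 at 0.56 and Zbtb40 at 1.30. Dcp2, the mRNA decapping enzyme, was at 0.88, but with 43.2% of its reads on its own strand, and in the gene-strand counts its log2 fold change was -0.14. The pseudogene Nlrp5-ps, with 3.27% on its own strand, and 7 predicted genes were also among the 40. In all, 8 of the 56 genes had less than 50% of their reads on their own strand, as did 10.5% of all genes tested.

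The 73 genes carried by WT replicates 2 and 3 are set beside the 56 for contrast. They included 16 of the 23 tested acute phase genes, all lower in KO, where 0.651% of all genes tested were called lower. WT replicates 2 and 3 were set apart by these same genes, so this number follows from that choice and is no separate result. Of the 73, 26 came from the lists of acute phase, coagulation and complement, or plasma carrier genes, lists that hold none of the 56. With 23, 30 and 24 tested genes of 13204 in these lists, that absence says little. Apon, an apolipoprotein gene among the 56, is not in them. Lcn2, an iron-scavenging protein of the acute phase, had 6.92, 1.96 and 1.4 CPM in the KO livers, against 2.34, 118 and 137 CPM in the WT livers, with WT replicate 1 inside the KO range. Fgl1, a secreted acute phase protein, had 125, 118 and 108 CPM in the KO livers, against 157, 788 and 768 CPM in the WT livers (log2 fold change -2.28 ± 0.43 SE, adjusted p = 0.0174). The acute phase list had a median of -1.51, and of -0.10 without these 2 mice, which follows from the same choice. Red blood cell markers moved with the same mice, with 3 of 5 tested called lower, beside 0.651% of all genes tested. They summed to 42.2 to 59.3 CPM in the KO mice, against 80.1, 252 and 331 CPM in the WT mice. Kupffer cell markers did so too: all 12 had a negative sign, where 48.6% of all genes tested were positive, and C1qb was called. The 12 summed to 71.0 to 92.3 CPM in the KO mice, against 90.9, 149 and 202 CPM in the WT mice. Their median was -0.83, or -0.22 without WT replicates 2 and 3, and their part in the differences was not tested. No neutrophil, B cell or mesothelial marker had enough counts to be tested.

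Some genes went the other way, with WT replicate 1 farthest from the KO mice, without being called. Gadd45g, a growth arrest gene induced by stress, had 10.6, 22.4 and 19.6 CPM in the KO livers, against 77.4, 38 and 42.8 CPM in the WT livers (log2 fold change -1.62 ± 0.44 SE, adjusted p = 0.118). Ppargc1a, the coactivator of fasting metabolism, had 19.4, 20.5 and 17 CPM in the KO livers, against 77.5, 31.3 and 41.3 CPM in the WT livers (log2 fold change -1.42 ± 0.37 SE, adjusted p = 0.0937). Neither overlapped between the genotypes, and without WT replicates 2 and 3 the log2 fold changes were -2.16 and -2.03.

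The same genes were then followed in the mice of the other times, which did not choose them. Of the 40 genes higher in KO at 3 h, 19 were higher at 0 h, 13 at 1 h and 20 at 12 h, with median log2 fold changes of 0.00, -0.16 and -0.01. Of the 16 lower genes, 10, 6 and 8 were lower, with medians of -0.16, 0.23 and 0.02. Of the 56, 1 was called at 0 h (Gm16146), 3 at 1 h (Hspa1b, Adh7 and Gm4274) and 0 at 12 h, where 0.0151%, 0.492% and 0.053% of all genes tested were. Each of these calls ran against the direction of 3 h: the genes were lower in KO at 0 or 1 h and higher at 3 h. At 0 h the genotypes did not overlap in 7 of the 56 in the direction of 3 h and in 5 in the opposite one, and at 12 h in 11 and 8, where 14.4% and 14.5% of all genes tested did not. At 1 h they did not overlap in 23 of the 56 (41.1%), with 14.9% over all genes tested, and in 18 of the 23 the difference ran against that at 3 h.

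**Figure D4:**
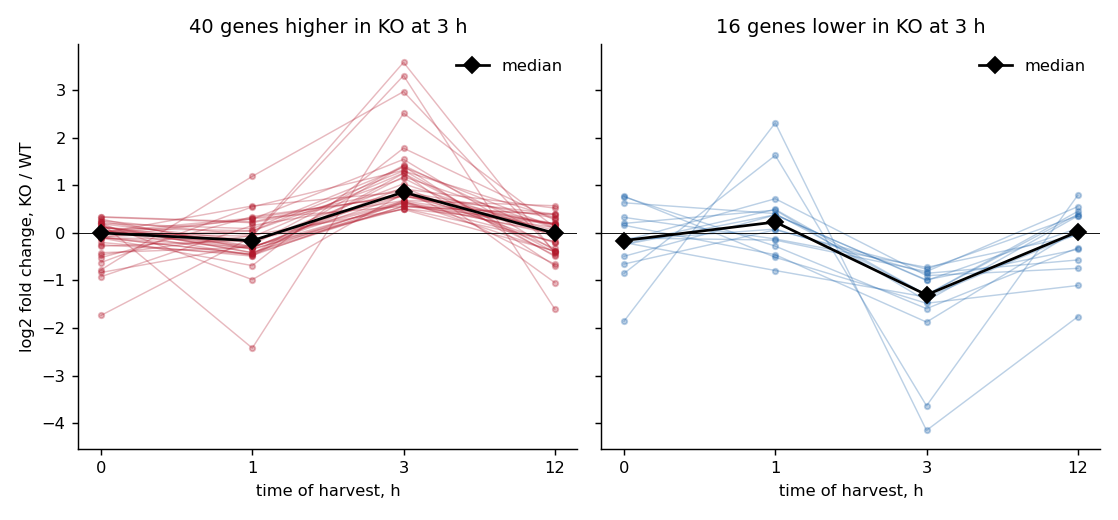
Log2 fold change of KO over WT at 0, 1, 3 and 12 h for the 40 genes higher (left) and the 16 lower (right) in KO at 3 h and separated by all 3 WT mice. Thin lines are genes and diamonds the median, which is 0.86 and -1.30 at 3 h and between -0.16 and 0.23 at the other times. The genes were chosen at 3 h, so the peak there follows from the choice.

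Hspa1b was among the genes that turned. At 1 h it had 4.01, 4.46 and 1.28 CPM in the KO livers, against 16.9, 19.4 and 15 CPM in the WT livers, where the KO mice were lower (log2 fold change -2.42 ± 0.37 SE, adjusted p = 0.00148). At 12 h it had 2.34, 1.47 and 1.4 CPM in the KO livers, against 1.27, 1.67 and 1.82 CPM in the WT livers, and the genotypes overlapped. So the WT mice were high at 1 h and low at 3 h, while the KO mice stayed at 1.28 to 10.9 CPM at both times. Adh7 was also lower in KO at 1 h (-0.98, adjusted p = 0.00239). The library labelled KO 1 h replicate 1 had Egfr at 335 CPM, inside the WT range of 332 to 407 CPM, which goes against its label; its Hspa1b value of 4.01 CPM lay between those of the other 2 KO mice.

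Whether the difference at 3 h departed from those at other times was tested as the KO minus WT difference at 3 h less the mean of the differences at 0, 1 and 12 h. Of all genes 77 were called (0.583%), 1406 had an unadjusted p under 0.05, and 32 of the 56 genes were among those called, 24 higher and 8 lower. This contrast uses the 3 h mice that chose the genes, so the count is a description. Fam13a stood at 1.82, Hhex at 1.58 and Clec2d at 1.62. Slc10a2 (-1.80, adjusted p = 0.103) and Ier2 (1.25, adjusted p = 0.0552) did not pass.

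The time courses of single genes show what lay behind these values. Fam13a at 1 h had 14.3, 19.6 and 17.5 CPM in the KO livers, against 23.7, 24 and 22.5 CPM in the WT livers. The WT mice at 3 h lay below every WT mouse of the other times. Hhex at 1 h had 20.4, 36.4 and 38.8 CPM in the KO livers, against 21.3, 29 and 28.8 CPM in the WT livers, so both genotypes were then above the WT mice of 3 h. Slc10a2 at 12 h had 39.9, 23.3 and 22.7 CPM in the KO livers, against 42.1, 27 and 14.3 CPM in the WT livers, and no WT mouse of the other times reached the 85.7 CPM of the lowest WT mouse at 3 h. Socs3 at 12 h had 34.3, 37.1 and 71.6 CPM in the KO livers, against 74, 42.8 and 59.4 CPM in the WT livers, so both genotypes were then far above every value at 3 h.

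**Figure D5:**
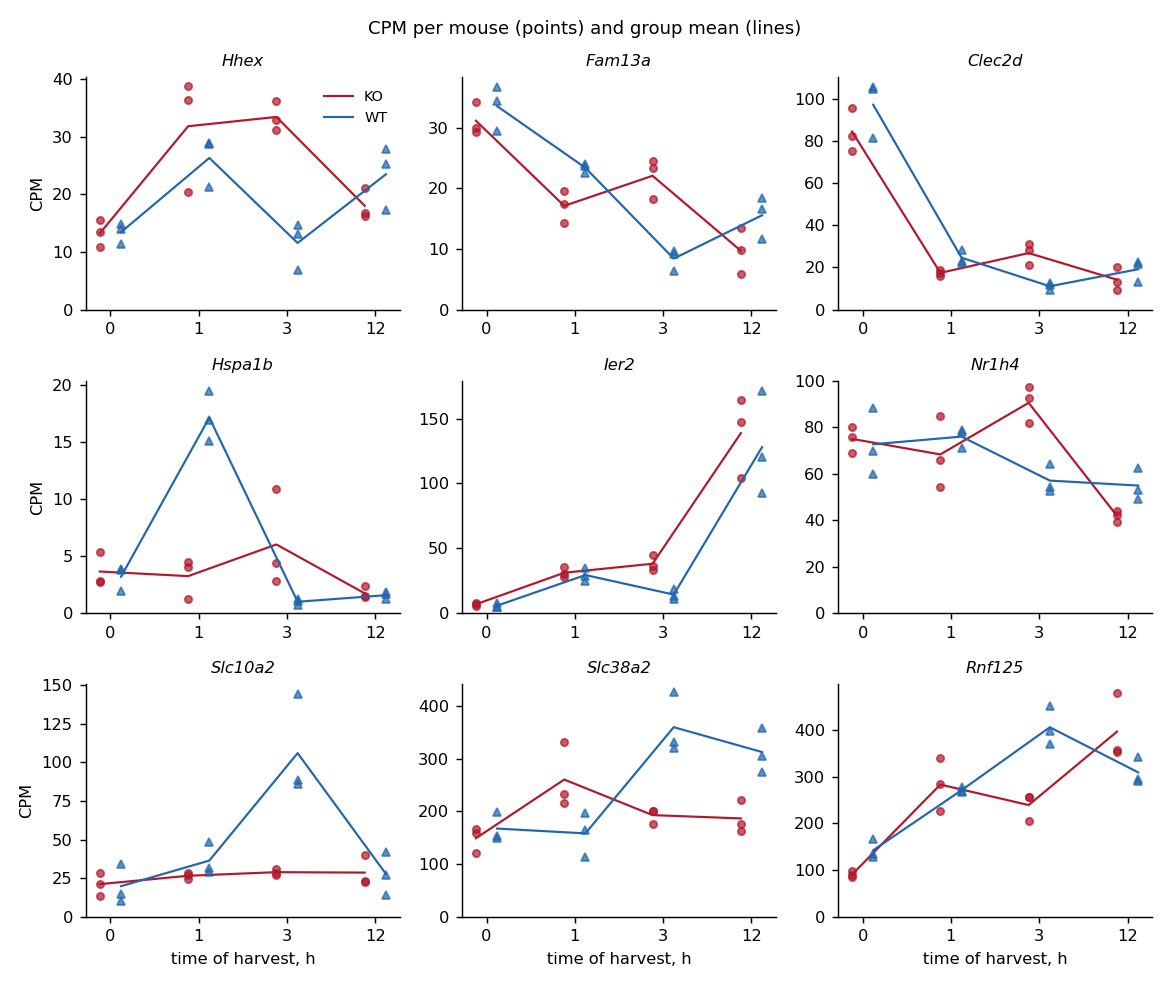
CPM of 9 of the 56 genes in every mouse at 0, 1, 3 and 12 h, with KO as red circles left of WT as blue triangles and lines through the group means. The genes were chosen because the genotypes are separated at 3 h. In Hhex, Fam13a and Clec2d the WT mean falls between 1 and 3 h while the KO mean does not. Mice at different times are different animals.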

How the data were processed

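RNA of individual mouse livers was extracted with TRIzol and sequenced as polyA RNA on an AVITI instrument, per the labels' protocols. The authors deposited raw read counts per gene made with STAR on mm39, per the submitters' processing notes; for the STAR version and the annotation nothing is given in the sources used here. Each library holds 50657 genes. The unstranded column was used, in which reads of both strands are added, and lines that name no gene were left out: 19.6% to 20.9% of the reads at 3 h were on genes and 27.8% to 29.2% were ambiguous.

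Counts of all 24 libraries were fitted in R 4.3.3 with edgeR 4.0.16 (filterByExpr, TMM, robust quasi-likelihood, 1 mean for each of 8 groups, no covariate), with two-sided tests and Benjamini-Hochberg adjustment over 13204 genes at 0.05. Log2 CPM used a prior count of 2. A chi-square of counts between replicates at 3 h gave 2.23 to 21.6 per degree of freedom, so none was a duplicate. Scripts were tested on simulated data. The alternatives were RLE scaling, library size alone, other filters, DESeq2 1.42.0, the 6 libraries alone, the replicate block and libraries left out. The gene-strand column, removal of ribosomal RNA loci and leaving out KO 1 h replicate 1 were alternatives too. The genes and the lists were chosen with earlier results of these data known.

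Named were the 12 genes per direction with the largest fold among the 56 with at least 5 CPM, members of 32 gene lists, the 5 largest per direction carried by WT replicates 2 and 3, the EGF receptor family, and the 6 largest per direction in the contrast between times. Predicted genes were counted but not described, and some list members are left out for length. A few genes are not reported here.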

Additional observations from a re-analysis of the deposited data

Results flagged for a closer look

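For 32 named genes the KO minus WT difference at 3 h departed from the mean of the differences at 0, 1 and 12 h, by the contrast between times in the same edgeR fit (adjusted p under 0.05). Values are log2 differences between these differences. Most of the genes had been picked at 3 h in the same mice, and groups of 3 mice are too small for a search for single deviating mice.

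Among the genes separated by all 3 WT mice, the departure was toward higher levels in KO for Hspa1b at 3.21, Hhex at 1.58, Prox1 at 0.68, Nr1h4 at 0.83 and Rreb1 at 0.67. The same held for Fam13a at 1.82, Mcc at 1.2, Smad9 at 1.33, Clec2d at 1.62, Plcxd2 at 1.32 and Mup-ps16 at 1.51. Rbm47 stood at 0.63, Gucd1 at 0.67 and Nav2 at 0.70. For 4 genes whose reads lay largely or partly on the other strand the values were 1.03 for Adh7, 1.18 for Dcp2, 1.82 for Ppfia2 and 1.96 for Nlrp5-ps. Igfbp2, a binding protein of insulin-like growth factors, stood at 0.88 and was not called at 3 h itself; it had 148, 166 and 164 CPM in the KO livers, against 126, 90.4 and 85.7 CPM in the WT livers.

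Toward lower levels in KO, Cfap69 stood at -4.16, on the few counts given above. Socs3 stood at -1.65, Il17ra at -1.08, Rnf125 at -0.69, Apon at -0.77, Specc1 at -1.52 and Hmcn2 at -1.77. A further 6 genes were carried by WT 3 h replicates 2 and 3: Slc3a1 at -3.25, Fgl1 at -2.25, Serpina3n at -2.15, Orm1 at -2.12, Prg4 at -1.95 and Lrg1 at -1.88. The contrast weighs the 3 other times equally, so opposite differences there add to a value. Hspa1b and Adh7, lower in KO at 1 h, owe part of their values to that time. The same holds for Fam13a, at log2 fold change -0.44 at 1 h and -0.69 at 12 h, and for Hmcn2, at 0.48 and 0.36. It holds for others too, among them Clec2d, at -0.20 at 0 h, -0.49 at 1 h and -0.41 at 12 h. Without WT replicates 2 and 3 the contrast called 22 genes, against 77 with them.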

How the results depend on the processing

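Of 129 genes called, 9 to 330 were called when 1 of the 6 libraries was left out (6 to 125 higher, 3 to 205 lower), and of the 56 separated by all 3 WT mice 8 to 44 were. The number so separated, counted anew, ran from 8 to 34 without single libraries other than WT replicate 1, whose loss leaves it undefined, and was 61 without KO 1 h replicate 1, and the contrast between times called 13 to 268 genes. Without WT replicates 2 and 3 together there were 26 calls (6 higher, 20 lower), 6 of the 56 and 22 in the contrast between times; Orm2 (1.86), Lcn2 (0.60), Apcs (0.24), Scd1 (0.26) and Errfi1 (-0.13) then changed sign. Dcp2 did so in the gene-strand counts (-0.14), where 2 of the 56 were called at another time, in place of 4. No low-count filter gave 254 calls (97 higher, 157 lower), 115 separated genes, 216 in the contrast between times and 9 called at another time. Library size alone gave 68 higher, which made 49.3% of its calls higher, against 33.3%. DESeq2 gave 68 higher and 165 in the contrast between times. The 6 libraries alone gave 46 calls, 17 of them lower, and 32 of the 56. Asking WT replicate 1 for 0.75 of the distance left 36 genes, and asking nothing of it 114. The cause of these changes was not tested.

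With the replicate block 131 genes were called (53 higher), 53 of the 56 among them, and Egfr was at -1.38. Between KO and WT mice of equal replicate number at 3 h, deviations from the group means correlated at -0.092 to -0.008. With 3 mice a group this cannot exclude a pairing. RLE scaling left every call of the 47 members with a gene name in place. Egfr stayed negative and uncalled in every setting, between -1.81 and -0.76. With 3 mice a group and 4.43 to 7.25 M counts a library, the low genes hold few counts, and absence of a call shows no equality. Smaller folds may not have been detectable at this depth.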

Other observations

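Several gene lists with no called gene had most members on the same side, where 48.6% of all genes tested were positive. Of 11 tested cell cycle genes 10 had a negative log2 fold change, with a median of -0.48, and -0.51 without WT replicates 2 and 3. In 3 of the 11 the genotypes did not overlap, where 15.5% of all genes tested did not. These genes were low: all 11 together summed to 30.8 to 33.6 CPM in the KO mice, against 36.1, 44.5 and 47.8 CPM in the WT mice. Of 18 genes of gluconeogenesis and the insulin response 14 were negative, with medians of -0.23 and -0.34. Of 18 ER chaperones 16 were positive, with medians of 0.23 and 0.20. Cholesterol synthesis genes turned with the choice of WT mice: the median over 21 was -0.26 with all WT mice and 0.13 without replicates 2 and 3. Gdf15, a stress-induced secreted factor, had 26.3, 10.02 and 14 CPM in the KO livers, against 10.05, 5.28 and 7.89 CPM in the WT livers, and the genotypes overlapped (log2 fold change 1.11 ± 0.34 SE, adjusted p = 0.173).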
